A study of Saccharomyces cerevisiae with 8 samples.

Results

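The genes described here make and break down trehalose in *Saccharomyces cerevisiae*. They were chosen by name for their known role, but with earlier results of these data known. They comprise 4 synthesis genes (*TPS1*, *TPS2*, *TPS3* and *TSL1*) and 3 breakdown genes (*NTH1*, *NTH2* and *ATH1*). All 7 were measured, each by 1 probe set, among 5444 genes in all. Transcript levels came from Affymetrix Yeast Genome 2.0 arrays and are log2 values as deposited. Both strains were CEN.PK113-11C, auxotrophic for histidine and uracil, and both carried a plasmid selected in medium lacking histidine with glucose as carbon source. The control strain carried p413 TEF without an insert. The L-UBB+1 strain carried the same plasmid with UBB+1, a frameshifted human ubiquitin, expressed constitutively at a low level from the TEF promoter. Each strain was sampled in exponential growth (EX) and at D6, which is 6 days after the carbon source had run out, as biological duplicates, which gave 8 arrays in 4 groups of 2. No probe set for UBB+1 was among the values, so the transgene itself was not checked.

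Trehalose is a disaccharide of 2 glucose units that yeast stores and that protects proteins and membranes under heat, drying and starvation. Trehalose-6-phosphate synthase joins glucose-6-phosphate to the glucose of UDP-glucose, a phosphatase removes the phosphate, and both enzymes work in a complex with large regulatory subunits. Trehalases split the sugar back into glucose, one kind in the cytosol when growth resumes and an acid form that lets cells use trehalose from outside. Transcripts of the synthesis genes and of the trehalases are both known to rise under stress and when glucose runs short, and activity of the neutral trehalase is set mainly by phosphorylation.

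The phase labels were checked with markers, because growth state by itself moves these genes. The mean log2 level of 7 stationary phase genes (*SPG1*, *SPG4*, *SNZ1*, *HSP26*, *HSP12*, *SSA3* and *HXT5*) was 8.71 to 8.86 in the control EX arrays and 8.25 to 8.49 in the control D6 arrays. In the L-UBB+1 strain it was 11.56 to 11.91 at EX and 11.52 to 12.05 at D6. Only 2 of the 7 were higher at D6 than at EX in the control strain, and all 7 were higher in the L-UBB+1 strain at both phases. The means of 6 growth markers (*HXT3*, *HXT4*, *HXK2*, *ENO2*, *RPL3* and *RPS3*) were 11.67 to 11.90 over the 4 control arrays and 9.25 to 9.34 over the 4 L-UBB+1 arrays. The control D6 arrays and the L-UBB+1 EX arrays therefore went against their phase labels, and growth state and strain cannot be told apart in these arrays. L-UBB+1 EX replicate 1 and D6 replicate 2 differed by an SD over genes of 0.086, and EX replicate 2 and D6 replicate 1 by 0.143, against 0.202 to 0.287 between replicates. Whether the labels of these groups were exchanged was not tested. Under such an exchange the values given below as strain differences would be differences between phases. The members, and the pathway genes where it bears on a call, are therefore also given with the control D6 and L-UBB+1 EX arrays left out. This sets L-UBB+1 D6 against control EX, groups that differ in both strain and phase.

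The enzyme genes of synthesis were lower in the L-UBB+1 strain at EX but did not pass the call, which was an adjusted p under 0.001 (limma, Benjamini-Hochberg over all 5444 genes) together with a log2 difference of 1 or more in either direction. *TPS1* (YBR126C) encodes trehalose-6-phosphate synthase. Its log2 level was 11.01 and 10.85 in the control EX arrays, 9.94 and 10.30 in the control D6 arrays, 9.49 and 9.996 in the L-UBB+1 EX arrays and 9.90 and 9.38 in the L-UBB+1 D6 arrays. The control EX arrays stood above the 6 others, and within each phase the arrays of the strains did not overlap. At EX *TPS1* was 2.28-fold lower in L-UBB+1 cells (log2 fold change -1.19 ± 0.23, SE, n = 2 arrays per group; adjusted p = 0.00229). At D6 the difference was -0.48 ± 0.23 (adjusted p = 0.0964), with a 95% interval from -1.02 to 0.07.

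*TPS2* (YDR074W) encodes trehalose-6-phosphate phosphatase, which completes the synthesis. Its log2 level was 10.43 and 9.82 in control EX, 9.10 and 9.43 in control D6, 8.87 and 9.02 in L-UBB+1 EX and 8.86 and 8.78 in L-UBB+1 D6. All 4 L-UBB+1 arrays lay below the 4 control arrays, with a gap of 0.08 between the lowest control D6 array and the highest L-UBB+1 EX array. At EX the difference was 2.26-fold (log2 fold change -1.18 ± 0.20, adjusted p = 0.00126), just short of the call. With 1 array left out it ranged from -1.48 without control EX replicate 2 (adjusted p = 0.000593, called) to -0.87 without control EX replicate 1 (adjusted p = 0.00485, not called). At D6 it was -0.45 ± 0.20 (adjusted p = 0.0792), with a 95% interval from -0.93 to 0.03. Set as L-UBB+1 D6 against control EX, the log2 fold change was -1.29 for *TPS1* (adjusted p = 0.00174) and -1.30 for *TPS2* (adjusted p = 0.00241).

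The regulatory subunit genes had larger fold changes than the enzyme genes at both phases, a difference that was not tested. *TPS3* (YMR261C) and *TSL1* (YML100W) are paralogues that encode the large regulatory subunits of the complex, which stabilize it. *TPS3* was measured at 9.80 and 9.69 in control EX, 8.93 and 9.26 in control D6, 7.42 and 7.501 in L-UBB+1 EX and 7.40 and 7.35 in L-UBB+1 D6. The 4 L-UBB+1 arrays spanned 0.15 on the log2 scale and lay at least 1.43 below every control array. It fell 4.89-fold at EX (log2 fold change -2.29 ± 0.12, adjusted p = 4.50e-06) and 3.30-fold at D6 (-1.72 ± 0.12, adjusted p = 1.36e-05), and was called at both phases.

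*TSL1* was measured at 10.81 and 10.19 in control EX, 8.97 and 9.55 in control D6, 7.76 and 8.14 in L-UBB+1 EX and 7.94 and 7.66 in L-UBB+1 D6. Its replicates lay farther apart than those of *TPS3*, by 0.28 to 0.62, and the strains still did not overlap. *TSL1* fell 5.85-fold at EX (log2 fold change -2.55 ± 0.27, adjusted p = 8.80e-05), rank 99 among the decreases of all genes. At D6 it was 2.75-fold lower (-1.46 ± 0.27, adjusted p = 0.00165), which missed the call. Without the control D6 and L-UBB+1 EX arrays the values were -2.37 for *TPS3* (adjusted p = 5.29e-05) and -2.69 for *TSL1* (adjusted p = 0.000216), both called.

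All 3 trehalase genes were higher in the L-UBB+1 strain and were called at both phases. *NTH1* (YDR001C) encodes the neutral trehalase that does most of the breakdown in the cytosol. Its log2 level was 9.78 and 9.56 in control EX, 9.04 and 9.09 in control D6, 10.78 and 10.66 in L-UBB+1 EX and 10.50 and 10.82 in L-UBB+1 D6. The lowest L-UBB+1 array stood 0.72 above the highest control array. *NTH1* rose 2.07-fold at EX (log2 fold change 1.05 ± 0.14, adjusted p = 0.000259) and 3.02-fold at D6 (1.60 ± 0.14, adjusted p = 2.89e-05). The EX value sat just above the fold threshold, and the call was lost when any 1 EX array was left out, with adjusted p from 0.00132 to 0.00312. L-UBB+1 D6 against control EX gave 0.99 (adjusted p = 0.00218), not called.

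*NTH2* (YBR001C), the paralogue of *NTH1*, is required for thermotolerance, and its product contributes less activity. Its levels were 7.66 and 7.47 in control EX, 7.19 and 7.38 in control D6, 10.20 and 10.17 in L-UBB+1 EX and 10.12 and 10.12 in L-UBB+1 D6. The 4 L-UBB+1 arrays spanned 0.08. It rose 6.15-fold at EX (log2 fold change 2.62 ± 0.11, adjusted p = 1.75e-06) and 7.15-fold at D6 (2.84 ± 0.11, adjusted p = 1.27e-06), the widest difference between the strains among the members at both phases. Among the increases of all genes it ranked 104 at EX and 94 at D6.

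*ATH1* (YPR026W) encodes the acid trehalase, which is needed for growth on trehalose as carbon source. It was measured at 8.53 and 8.08 in control EX, 7.48 and 7.55 in control D6, 10.32 and 10.44 in L-UBB+1 EX and 10.24 and 10.21 in L-UBB+1 D6. Control arrays ranged over 1.05 and L-UBB+1 arrays over 0.23, with no overlap. *ATH1* rose 4.20-fold at EX (log2 fold change 2.07 ± 0.15, adjusted p = 1.31e-05) and 6.54-fold at D6 (2.71 ± 0.15, adjusted p = 4.26e-06). Without the 4 doubtful arrays *NTH2* had a log2 fold change of 2.56 (adjusted p = 5.29e-05) and *ATH1* of 1.92 (adjusted p = 0.000246), both called.

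**Figure D1:**
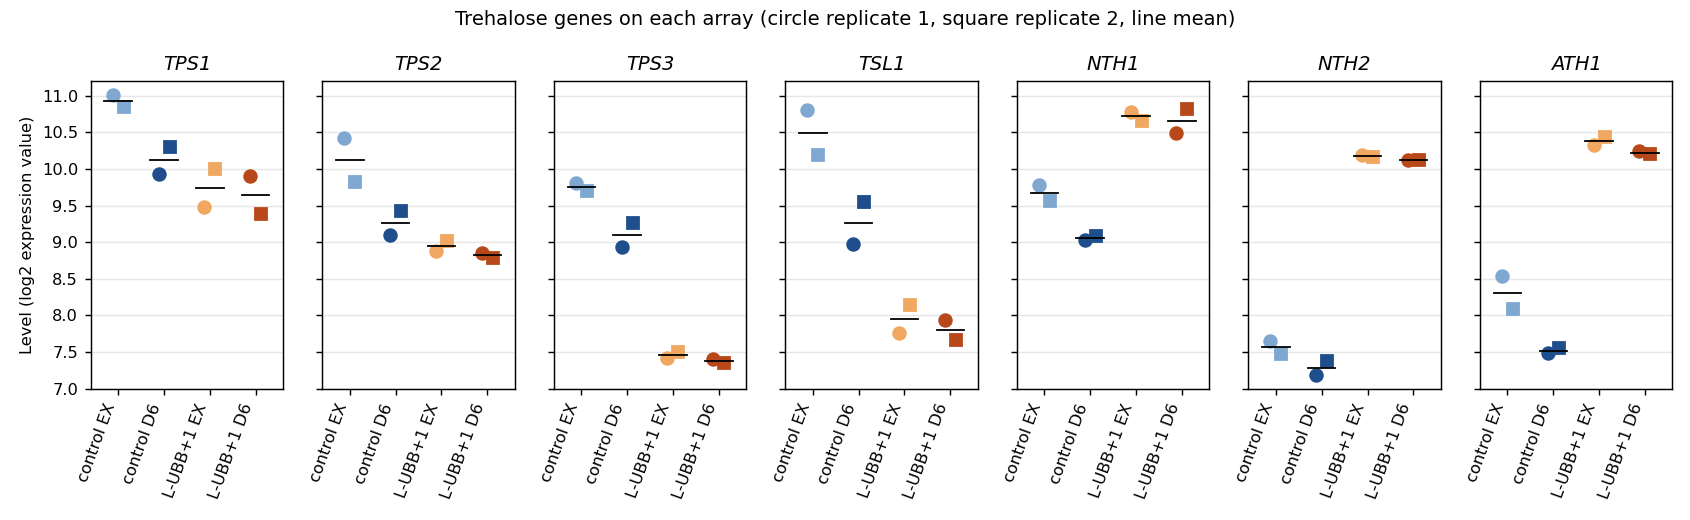
Log2 level of each of the 7 genes in every array, in 1 panel per gene, with the groups along the x axis, a point for each array and a line for the mean of the 2 arrays. The L-UBB+1 arrays lie below the control arrays of the same phase for the 4 synthesis genes and above them for *NTH1*, *NTH2* and *ATH1*. Levels of different genes come from different probe sets and cannot be set against each other.

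**Figure D2:**
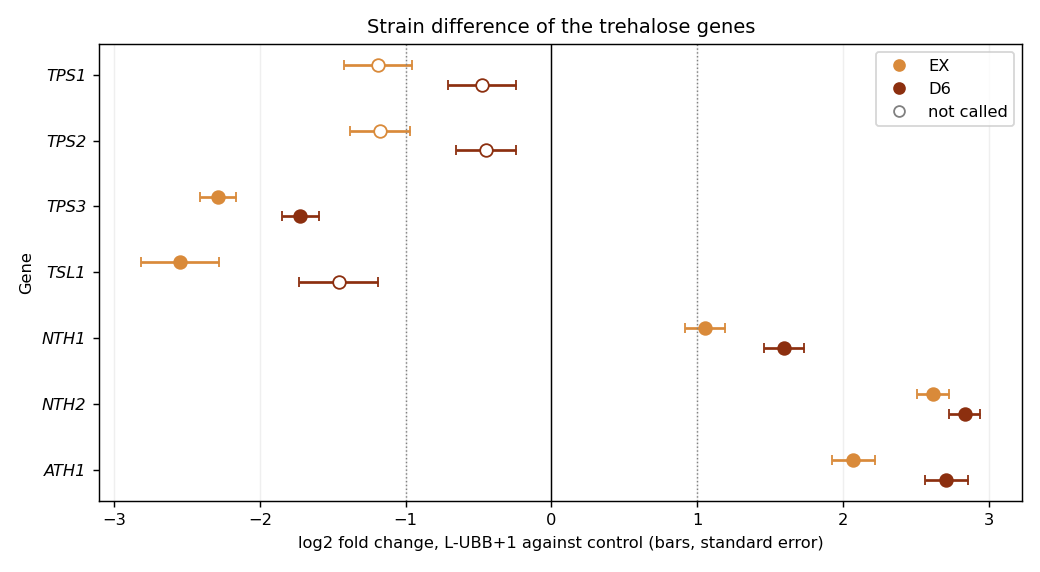
Log2 fold change of the L-UBB+1 strain over the control strain for each gene at EX and at D6, with bars for the standard error from limma, filled points for called genes and dotted lines at a log2 fold change of 1 in size. All 4 synthesis genes lie below 0 and all 3 breakdown genes above 0, and *TPS1* and *TPS2* at D6 lie closest to 0.

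The direction of change followed the role of the genes, with values below 0 for 4 of 4 synthesis genes and above 0 for 3 of 3 breakdown genes at both phases. At EX 3 members were called higher, against 17.2% of all genes, and 2 lower, against 17.1%. At D6 these were 3, against 17.9%, and 1, against 18.5%. The arrays of the strains did not overlap for any of the 7 genes, 3 higher and 4 lower, at either phase. This separation was common in the whole table: at EX it held for 44.5% of all genes as higher and 44.2% as lower, and at D6 for 43.4% and 44.1%. The median log2 fold change of the synthesis genes was -1.74 at EX and -0.97 at D6, and that of the breakdown genes was 2.07 and 2.71. Over all genes the median was 0.00 and -0.01.

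To follow both sides together, each gene was centred on its own mean over the 8 arrays and the log2 values were averaged over the synthesis genes and over the breakdown genes. Synthesis stood at 1.15 ± 0.27 (SD, n = 2) in control EX, 0.26 ± 0.28 in control D6, -0.65 ± 0.20 in L-UBB+1 EX and -0.76 ± 0.16 in L-UBB+1 D6. Breakdown stood at -0.79 ± 0.20, -1.35 ± 0.07, 1.12 ± 0.01 and 1.03 ± 0.07 in the same order. Synthesis minus breakdown was 1.99 and 1.90 in the control EX arrays, 1.47 and 1.76 in control D6, -1.92 and -1.62 in L-UBB+1 EX and -1.63 and -1.95 in L-UBB+1 D6. The strain difference of this balance was -3.71 at EX and -3.41 at D6, while D6 minus EX was -0.33 for the control and -0.02 for L-UBB+1. L-UBB+1 D6 minus control EX, which differ in both strain and phase, was -3.74. No test was made on these means.

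**Figure D3:**
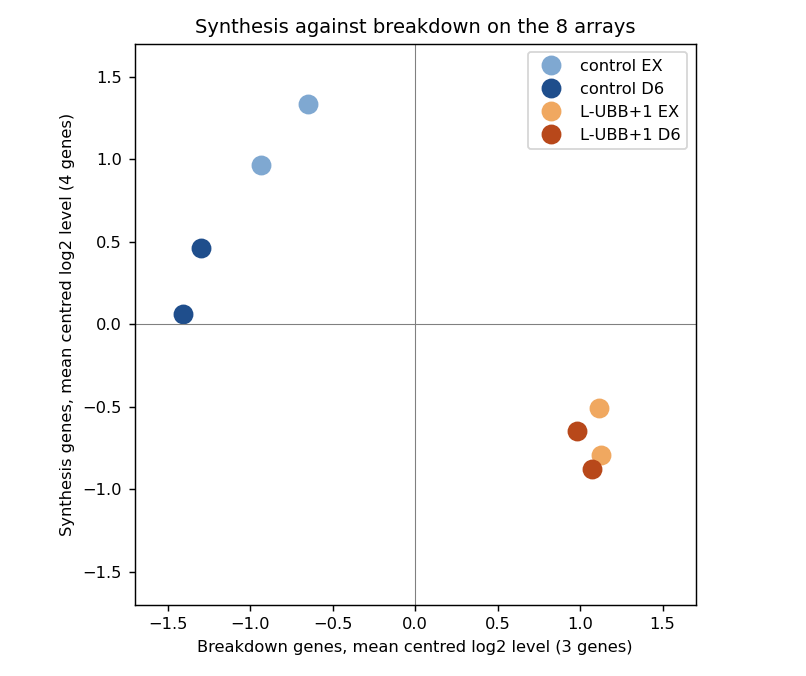
Mean centred log2 level of the 4 synthesis genes (y axis) against that of the 3 breakdown genes (x axis), a point for each array. Control arrays lie at high synthesis and low breakdown, L-UBB+1 arrays at low synthesis and high breakdown, and the control D6 arrays are below the control EX arrays on both axes.

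Across the 8 arrays the members moved as these blocks. Pearson's r lay between 0.88 and 0.97 for pairs of synthesis genes and between 0.96 and 0.99 for pairs of breakdown genes. Pairs across the blocks ran from -0.52 (*TPS2* with *NTH1*) to -0.95 (*TPS3* with *NTH2*). These values are descriptions over 8 arrays that share strain and phase.

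Within the control strain all 7 genes, synthesis and breakdown alike, were lower at D6 than at EX, and their arrays did not overlap, against 33.5% of all genes. The log2 differences ran from -0.28 for *NTH2* (adjusted p = 0.150) to -1.23 for *TSL1* (adjusted p = 0.0506). Adjusted p was under 0.05 for *TPS3* (-0.65, adjusted p = 0.0453) and *ATH1* (-0.79, adjusted p = 0.0435), or 2 members, against 1.03% of all genes. Neither passed without control EX replicate 1 (adjusted p = 0.311 and 0.237), without control D6 replicate 1 (0.264 and 0.265) or without either L-UBB+1 EX array (0.0660 for both). *TPS3* also missed it without control EX replicate 2 (0.0655) and *ATH1* without control D6 replicate 2 (0.0680). None of the 7 was called, nor was any gene in the table (0%) by limma. The unadjusted p was under 0.05 for all 7 members, against 1480 of all 5444 genes. The 2 control arrays of each phase also differed in 1 direction for all members: control EX replicate 1 was above replicate 2 by 0.11 (*TPS3*) to 0.62 (*TSL1*), and control D6 replicate 1 was below replicate 2 by 0.06 (*NTH1*) to 0.58 (*TSL1*).

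In the L-UBB+1 strain all 7 differences between D6 and EX were small and below 0. They lay between -0.15 and -0.06 on the log2 scale, every adjusted p was 1.00, and 0 of 7 had an unadjusted p under 0.05 by limma. This held for the whole table too, with 0% of genes called and 10 genes at an unadjusted p under 0.05. For 4 members, *TPS2*, *TPS3*, *NTH2* and *ATH1*, both D6 arrays lay below both EX arrays, against 6.7% of all genes. The 7 genes differed on average by 0.084 between L-UBB+1 EX replicate 1 and D6 replicate 2, less than between replicates of either phase, which differed by 0.198 and 0.184.

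The strain effect was more positive at D6 than at EX for all 7 genes, by 0.22 (*NTH2*) to 1.09 (*TSL1*) on the log2 scale. Hence the synthesis genes were less far below the control at D6 and the trehalases farther above it. No member was called for this difference, nor was any gene (0%), and the smallest adjusted p among the members was 0.275 (limma). At an unadjusted p under 0.05 there were 5 members, *TPS2*, *TPS3*, *TSL1*, *NTH1* and *ATH1*, against 15.9% of all genes. The control EX and control D6 arrays both enter this comparison.

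The order of the 4 groups was the same for *TPS2*, *TPS3* and *TSL1*, with control EX highest, then control D6, L-UBB+1 EX and L-UBB+1 D6. The array ranges of neighbours were separate for *TPS2* and *TPS3*. For *TSL1* the L-UBB+1 phases overlapped, and for *TPS1* only control EX was separate from the rest. For *NTH2* and *ATH1* the order was L-UBB+1 EX, L-UBB+1 D6, control EX and control D6, with separate ranges, and for *NTH1* the L-UBB+1 phases overlapped.

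The genes with the most similar pattern to 4 of the members were found by Pearson's r over the 8 arrays. *TPS1* was most like *PNC1* (0.991), *YGR111W* (0.990) and *UGA2* (0.989). For *TSL1* they were *XKS1* (0.995), *YOR292C* (0.995) and *SYM1* (0.994). *NTH1* was closest to *SCP1* (0.996), *GAL83* (0.995) and *INA22* (0.995), and *ATH1* to *TPP1* (0.999), *CYR1* (0.998) and *SPO1* (0.998). With 2 strains so far apart, many genes reach such values.

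Genes that feed, import or regulate trehalose metabolism were read from the same fit. There were 17 such genes. At EX 1 was called higher and 5 lower and the median log2 fold change was -0.38. At D6 2 were higher and 4 lower, and the median was -0.10. The shares called over all genes were those given for the members, 17.2% higher and 17.1% lower at EX and 17.9% and 18.5% at D6. With the control D6 and L-UBB+1 EX arrays left out, 1 was called higher and 5 lower.

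The supply of glucose-6-phosphate and UDP-glucose held the called decreases at EX. *UGP1*, which makes UDP-glucose, was measured at 11.02 and 10.82 in control EX, 9.90 and 10.42 in control D6, 8.25 and 8.59 in L-UBB+1 EX and 8.42 and 8.18 in L-UBB+1 D6. It fell 5.64-fold at EX (log2 fold change -2.50 ± 0.20, adjusted p = 2.26e-05) and 3.63-fold at D6 (-1.86 ± 0.20, adjusted p = 9.45e-05), and no L-UBB+1 array reached a control array. The phosphoglucomutase gene *PGM1* fell 4.01-fold at EX (adjusted p = 3.53e-06) and 3.97-fold at D6 (adjusted p = 3.28e-06). *HXK2*, the main hexokinase gene on glucose and also 1 of the growth markers above, fell 4.79-fold and 4.41-fold (adjusted p = 2.36e-06 and 2.68e-06). *HXK1* and *GLK1*, which also phosphorylate glucose, were called at EX, at -2.45 (adjusted p = 0.000157) and -2.01 (adjusted p = 5.36e-05). At D6 they stood at -1.03 (adjusted p = 0.0127) and -0.98 (adjusted p = 0.00233), and both were called there without control D6 replicate 1 (adjusted p = 0.000865 and 0.000156). The call of *HXK1* at EX was lost without control EX replicate 1, control EX replicate 2 or L-UBB+1 EX replicate 1 (adjusted p = 0.00217, 0.00195 and 0.00129). L-UBB+1 D6 against control EX gave -2.48 for *HXK1* (adjusted p = 7.04e-05) and -1.97 for *GLK1* (adjusted p = 6.70e-05), both called, as were *UGP1* (-2.62), *PGM1* (-1.99) and *HXK2* (-2.22).

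On the breakdown side, *MAL11* encodes a transporter that carries trehalose into the cell. It was measured at 8.70 and 8.75 in control EX, 8.10 and 8.45 in control D6, 10.32 and 10.51 in L-UBB+1 EX and 10.27 and 10.22 in L-UBB+1 D6. *MAL11* rose 3.22-fold at EX (log2 fold change 1.69, adjusted p = 2.08e-05) and 3.90-fold at D6 (1.96, adjusted p = 1.00e-05), in the direction of the trehalases. L-UBB+1 D6 against control EX gave 1.51 (adjusted p = 0.000118), also called.

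Proteins that act on Nth1 did not share a direction. The 14-3-3 genes *BMH1* and *BMH2*, whose products bind and activate phosphorylated Nth1, were at -0.92 (adjusted p = 0.000209) and -0.38 (adjusted p = 0.0213) at EX, neither past the fold threshold. *DCS1*, whose product inhibits Nth1, was at -0.25 at EX and 0.39 at D6 (adjusted p = 0.312 and 0.124). Its stress-induced paralogue *DCS2* was measured at 10.13 and 9.58 in control EX, 7.71 and 8.63 in control D6, 10.43 and 10.99 in L-UBB+1 EX and 11.03 and 10.46 in L-UBB+1 D6. *DCS2* rose 5.96-fold at D6 (log2 fold change 2.58, adjusted p = 0.000381), and at EX it was at 0.86 (adjusted p = 0.0629). The call at D6 was lost without control D6 replicate 1 (2.12, adjusted p = 0.00294) or L-UBB+1 D6 replicate 1 (2.29, adjusted p = 0.00190). It was also lost with the control D6 and L-UBB+1 EX arrays left out, where the log2 fold change was 0.89 (adjusted p = 0.0233).

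Of the regulators, none of the protein kinase A genes read here (*TPK2*, *TPK3* and *BCY1*), whose kinase phosphorylates Nth1, was called. The largest of their differences was that of *TPK2* at D6 (0.96, adjusted p = 0.00449), and L-UBB+1 D6 against control EX gave 0.15 (adjusted p = 0.502). *MSN4*, one of a pair of related transcription factors for stress genes, fell by 1.24 on the log2 scale at D6 (adjusted p = 3.62e-05) and was at -0.73 at EX. L-UBB+1 D6 against control EX gave -0.91 (adjusted p = 0.00139), not called. Its partner *MSN2* was at 0.76 and 0.58 and the heat shock factor gene *HSF1* at 0.88 and 0.93, all 4 below the fold threshold. At D6 *HSF1* passed it without control D6 replicate 1 (1.07) and, left out by itself, without L-UBB+1 D6 replicate 2 (1.01).

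**Figure D4:**
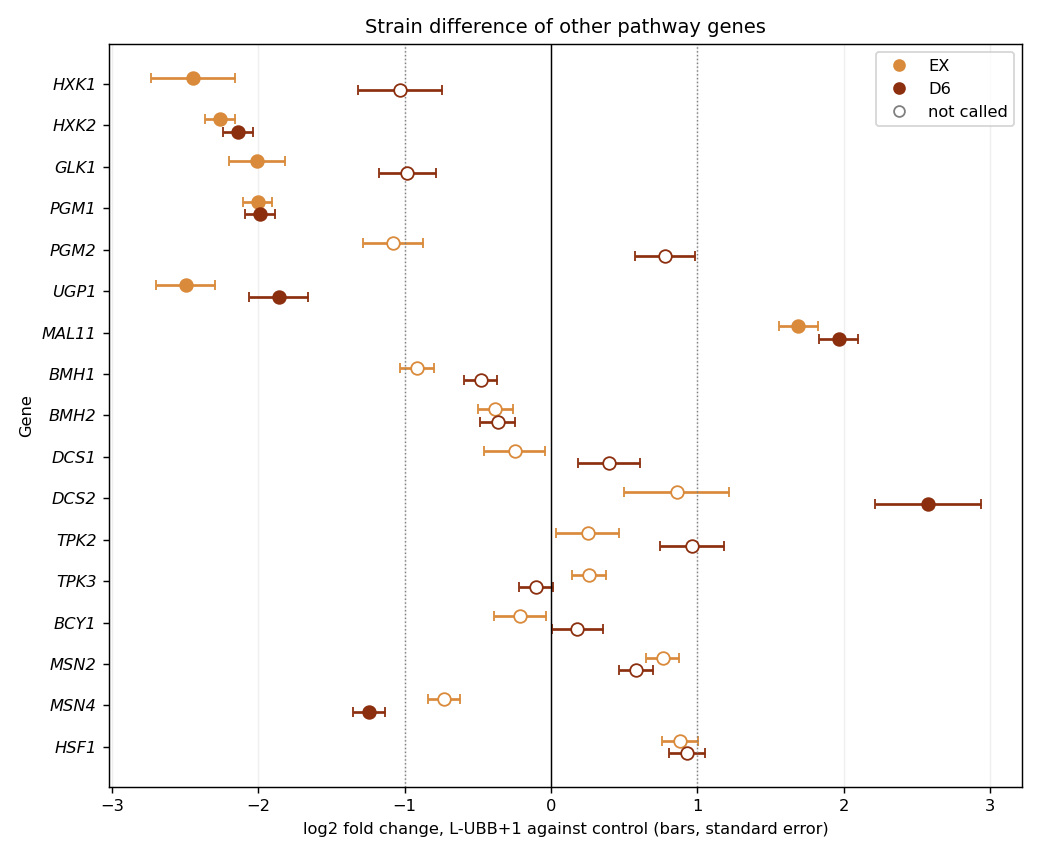
Log2 fold change of the L-UBB+1 strain over the control strain for the 17 other genes of the pathway, grouped by role, at EX and at D6, with bars for the standard error from limma and filled points for called genes. The supply genes other than *PGM2* at D6 lie below 0, *MAL11* lies above 1 at both phases, and the kinase genes lie near 0 except *TPK2* at D6.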

How the data were processed

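Transcript levels were measured on 8 Affymetrix Yeast Genome 2.0 arrays. The authors made the deposited log2 values per probe set from the scanned arrays in R (version 3.2.3 in the submitters' processing notes) with the PIANO package. Neither the normalization nor the probe summarization is named in the methods read here, and any effect of either carries over, since no further normalization was applied. Array medians lay between 8.34 and 8.41. With 2 arrays per group, their number limits the precision.

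Of 5705 probe sets, 5489 had 1 gene in the platform annotation and 216 had no gene named here. For 43 genes with several probe sets the one with the highest mean was used, which left 5444 genes, and 12 symbols were updated through the RefSeq gene table. limma 3.58.1 in R 4.3.3 was fitted to the 4 group means (4 residual and 3.26 prior degrees of freedom), with Benjamini-Hochberg adjustment over all genes. Calls required an adjusted p under 0.001 with a log2 difference of 1 or more in either direction. The fit was tested on simulated data. Named were all members, the pathway genes called in a strain comparison or needed for a role, the phase markers and the 3 most similar genes of *TPS1*, *TSL1*, *NTH1* and *ATH1*. The members and lists were chosen with earlier results of these data known. Alternatives covered normalization, a filter on dim genes, averaging of probe sets, other priors, a replicate block, looser thresholds, fits to 1 phase and left-out arrays. Promoter and protein sequences were not analysed here.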

Additional observations from a re-analysis of the deposited data

Results flagged for a closer look

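*PGM2*, the main phosphoglucomutase gene, had strain differences of opposite sign at EX and D6 with no overlap of arrays. Its log2 level was 10.61 and 10.17 in control EX, 8.17 and 8.70 in control D6, 9.22 and 9.40 in L-UBB+1 EX and 9.24 and 9.19 in L-UBB+1 D6. The strain difference was -1.08 at EX (limma adjusted p = 0.00208) and 0.78 at D6 (adjusted p = 0.00984), neither called. The difference between these effects was 1.86 on the log2 scale (unadjusted p = 0.000322, adjusted p = 0.275 over all genes), so it did not pass the correction. The L-UBB+1 arrays spanned 0.21 and the control arrays 2.44. L-UBB+1 D6 against control EX, which differ in both strain and phase, gave -1.18.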

How the results depend on the processing

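All 308 strain values of the 7 members (14 values under 22 alternatives) kept their direction, and 286 kept their side of the call. Much of the kept direction was fixed in advance. Looser thresholds, other priors, the dim filter, fits to 1 phase, replicate blocks and probe set averaging cannot change a member's log2 fold change. Nor can leaving out an array outside the comparison. The value of L-UBB+1 D6 against control EX was counted under both phases. With quantile normalization *TPS2* at EX was called (adjusted p = 0.000761). *TSL1* at EX was not called when L-UBB+1 EX 2 and D6 1, or EX 1 and D6 2, were left out together (adjusted p = 0.00125 and 0.00220). The 3 alternatives that leave out these pairs or cross the replicate numbers were chosen after seeing the data.

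With adjusted p under 0.05, 4 members were lower at EX and 2 at D6, with or without the fold, and without the fold 2 were lower at D6 in the control strain. Each left-out pair gave 1 lower member at EX and 3 lower pathway genes. Leaving out the control D6 and L-UBB+1 EX arrays sets L-UBB+1 D6 against control EX. This gave 2 higher and 2 lower members and 1 higher and 5 lower pathway genes, against 841 higher and 862 lower of all genes. In that comparison *PGM2* (-1.18), *DCS1* (-0.24), *TPK3* (0.26) and *BCY1* (-0.25) had the opposite sign to their strain difference at D6. The cause was not tested. Leaving out 1 array changed the numbers of called members and pathway genes, and also the numbers called over the whole table. The log2 fold change of *BCY1* at D6 then ranged from -0.0198 to 0.38. The D6 minus EX difference in the L-UBB+1 strain ranged from -0.36 to 0.16 for *TPS1* and from -0.34 to 0.0464 for *TSL1*. For *NTH1* it ranged from -0.22 to 0.10 (0.0400 without L-UBB+1 EX 2 and D6 1). Without the fold, adjusted p under 0.05 gave 3 pathway genes higher and 9 lower at EX and 6 and 8 at D6, and 2027 and 2039 of all genes at EX and 2051 and 2089 at D6. In the control strain 36 genes were higher and 17 lower with the fold, and 135 and 56 without it.

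Synthesis minus breakdown at EX ranged from -3.86 to -3.57 with 1 array left out, and was -3.86 and -3.57 with each pair left out, -3.86 with medians and -3.10 with *TPS1* and *TPS2* alone as synthesis. Leaving out 1 member gave -3.92 (*TPS1*), -3.92 (*TPS2*), -3.55 (*TPS3*), -3.47 (*TSL1*), -4.15 (*NTH1*) and -3.36 (*NTH2*). The value without *ATH1* is not listed, since it moved by less than the mean SD of the groups compared. At D6 synthesis minus breakdown was -2.84 with *TPS1* and *TPS2* alone, -3.18 without *TPS3*, -3.80 without *NTH1* and -3.18 without *NTH2*. L-UBB+1 D6 against control EX, which differ in strain and phase, gave -3.74.

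The replicates share only a number. With the replicate block the calls were 3 members higher and 2 lower at EX, 3 and 1 at D6, and 1 pathway gene higher at D6, where *DCS2* was not called (adjusted p = 0.00108). *TPS3* and *ATH1* lost an adjusted p under 0.05 in the control strain (0.0963 and 0.0960), and no gene in the table kept it. The main fit gave it for these 2 members and for 191 of all genes. Other settings gave it for more members. These were 3 (281 genes) with arrays centred on their median, 3 (264) with an intensity trend in the prior and 4 (254) without dim genes. Quantile normalization, averaging of probe sets and the robust prior left 2 members. Deviations of equal numbers correlated from -0.855 (L-UBB+1 EX with D6) to 0.364. With crossed numbers 4 members were called lower at EX and 2 at D6. For the difference of the strain effect 2 members and 393 of all genes had an adjusted p under 0.05, against 0 in the main fit. In the control strain 6 members and 1146 of all genes then had it (0.0064 for *TPS3* and 0.00651 for *ATH1*). Crossing the numbers thus raised these counts over the whole table. Only 2 arrays per group, probe sets of unknown background and 4 arrays at odds with their phase labels limit all values.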
